A study of Saccharomyces cerevisiae BY4741 with 40 samples.

Results

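The comparison described here is the loss of the histone methyltransferase Set2 in budding yeast cells that already lacked Upf1, read as upf1∆set2∆ against upf1∆ over every transcription start site cluster (TSSC) of the deposited SET2 table. Both genotypes were measured by TSS sequencing in 3 libraries each, which is 6 of the 40 samples of the series, and the table holds 21707 TSSCs. All strains were BY4741 can1∆ cells. By the labels, upf1∆ cells carried KANMX6 at UPF1, whereas upf1∆set2∆ cells carried KANMX6 at SET2 and HIS3MX6 at UPF1. The marker at UPF1 thus differed between the genotypes, and within this comparison its part cannot be told apart from that of SET2. The 3 upf1∆ libraries came from 1 strain and the 3 upf1∆set2∆ libraries from another single strain. The wild-type (WT) and set2∆ cells of the same table, with intact UPF1 and 3 libraries each, gave the same contrast in cells with Upf1, shared no library with it and came from 2 strains each. A TSSC is a run of 5′ ends of capped RNAs at most a short distance apart on 1 strand, and each has 1 value per genotype, a whole number of normalized reads that the authors pooled over the libraries. The spread between libraries is therefore not in the table, and no difference below carries a p-value. Nothing in the labels says that the libraries of a genotype came from separate cultures. The paper speaks of biological replicates for the library sets with rrp6∆ cells and for a WT library of this table.

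Set2 travels with elongating RNA polymerase II and methylates histone H3 in transcribed chromatin. The mark recruits the Rpd3S deacetylase complex through its subunit Eaf3, and deacetylated, methylated chromatin keeps the polymerase from starting inside genes. Loss of Set2 is known for cryptic transcripts that begin within open reading frames (ORFs), on either strand. Upf1 is the RNA helicase at the centre of nonsense-mediated decay (NMD), which removes RNAs whose translation ends early or far from the 3′ end. An RNA that starts inside an ORF often meets an ATG out of frame first, and so such RNAs can be lost to NMD before they are counted. Comparing the genotypes without Upf1 therefore looks at internal initiation with that removal taken away.

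The authors' classes are used throughout. An mRNA-TSSC lies in the 5′ untranslated region of a gene. B-TSSCs lie within an ORF or its 3′ untranslated region in the sense direction, and A-TSSCs overlap an mRNA in antisense. CUTs, XUTs and SUTs are annotated noncoding transcripts named for being cryptic and unstable, sensitive to the exonuclease Xrn1, or stable, and intergenic TSSCs fall in none of these. Ratios are log2 values after adding 1 read to each genotype, and a TSSC is called higher or lower where they pass 2-fold. The 4 B-TSSCs with the largest ratio among the 1829 with a mean of at least 20 are shown first by the bases around the first ATG that follows the centre of the cluster, because this ATG is where a scanning ribosome would first find a start codon. The ATG is in capitals, and the bases were read from the R64 genome:
RAD3: cgatgagacATGcagctcaatgtctgg
YFL034W: gtcttgaatATGactagcttggaaatt
MTC4: ctattagtaATGgaggcaccagcagaa
RRM3: ataagcctgATGtagaattagttaatg

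The RAD3 bases are on chromosome V from 529054 to 529080 (plus strand), those of YFL034W on chromosome VI from 66953 to 66979 (plus), those of MTC4 on chromosome II from 725657 to 725683 (plus) and those of RRM3 on chromosome VIII from 171386 to 171412 (minus). In YFL034W the ATG was in the frame of the ORF and opened 578 codons of it. In the other 3 it was out of frame and opened 9 codons in RAD3, 44 in MTC4 and 1 in RRM3, where a stop codon follows at once. Each of these 4 ATGs lies inside its cluster, so RNAs that start in the downstream part of the cluster do not contain it.

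RAD3, a DNA helicase of the transcription and repair factor TFIIH, had its leading B-TSSC on chromosome V from 529007 to 529108. It was listed at 0 in upf1∆ and at 168 in upf1∆set2∆ cells, with 1 in WT and 76 in set2∆ cells. The mRNA-TSSC of RAD3 was at 178 in upf1∆ and 172 in upf1∆set2∆ cells, so the internal start came to stand beside an mRNA start that moved little. YFL034W, an ORF without a standard name in the table, had a B-TSSC on chromosome VI from 66842 to 67038 listed at 0 in WT and upf1∆, 126 in set2∆ and 144 in upf1∆set2∆ cells. MTC4, named for the maintenance of telomere capping, had a B-TSSC on chromosome II from 725575 to 725695 at 1 in WT, 1 in upf1∆, 56 in set2∆ and 282 in upf1∆set2∆ cells. RRM3, a DNA helicase of the Pif1 family, had a B-TSSC on chromosome VIII from 171364 to 171459 at 3, 2, 270 and 421 in the same order. In all 4 genes both genotypes without Set2 were high and both with Set2 were near 0. No fold is given against a value of 0, and the log2 ratios of MTC4 (7.14) and RRM3 (7.14) rest on upf1∆ values too low for the fold to be exact.

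**Figure D1:**
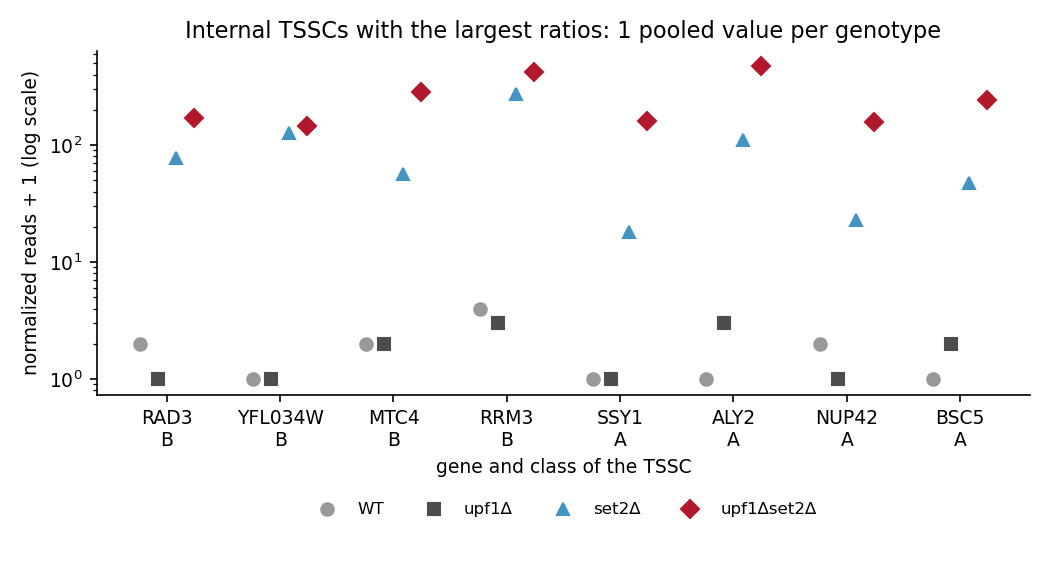
Normalized reads plus 1 (log axis) of the 4 B- and the 4 A-TSSCs with the largest ratio of upf1∆set2∆ over upf1∆ among those with a mean of at least 20, with 1 pooled value per genotype and no error bar. The 8 TSSCs lie at 3 or below in WT and upf1∆ cells, and between 144 and 470 in upf1∆set2∆ cells.

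Within these genes the new starts were not spread evenly. RAD3 had 7 B-TSSCs, of which the 3 nearest to its start codon were at 4, 5 and 5 in upf1∆ and at 9, 47 and 46 in upf1∆set2∆ cells. RRM3 had 3 B-TSSCs, at 12, 3 and 2 in upf1∆ and 193, 161 and 421 in upf1∆set2∆ cells, while its mRNA-TSSC was at 18 and 24. In MTC4 a second B-TSSC was at 0 and 43 and an A-TSSC at 1 and 18. The mRNA-TSSC of MTC4 was at 23 and 28, so that 92.1% of the sense reads of the gene began inside it in upf1∆set2∆ cells, against 4.17% in upf1∆ cells.

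**Figure D2:**
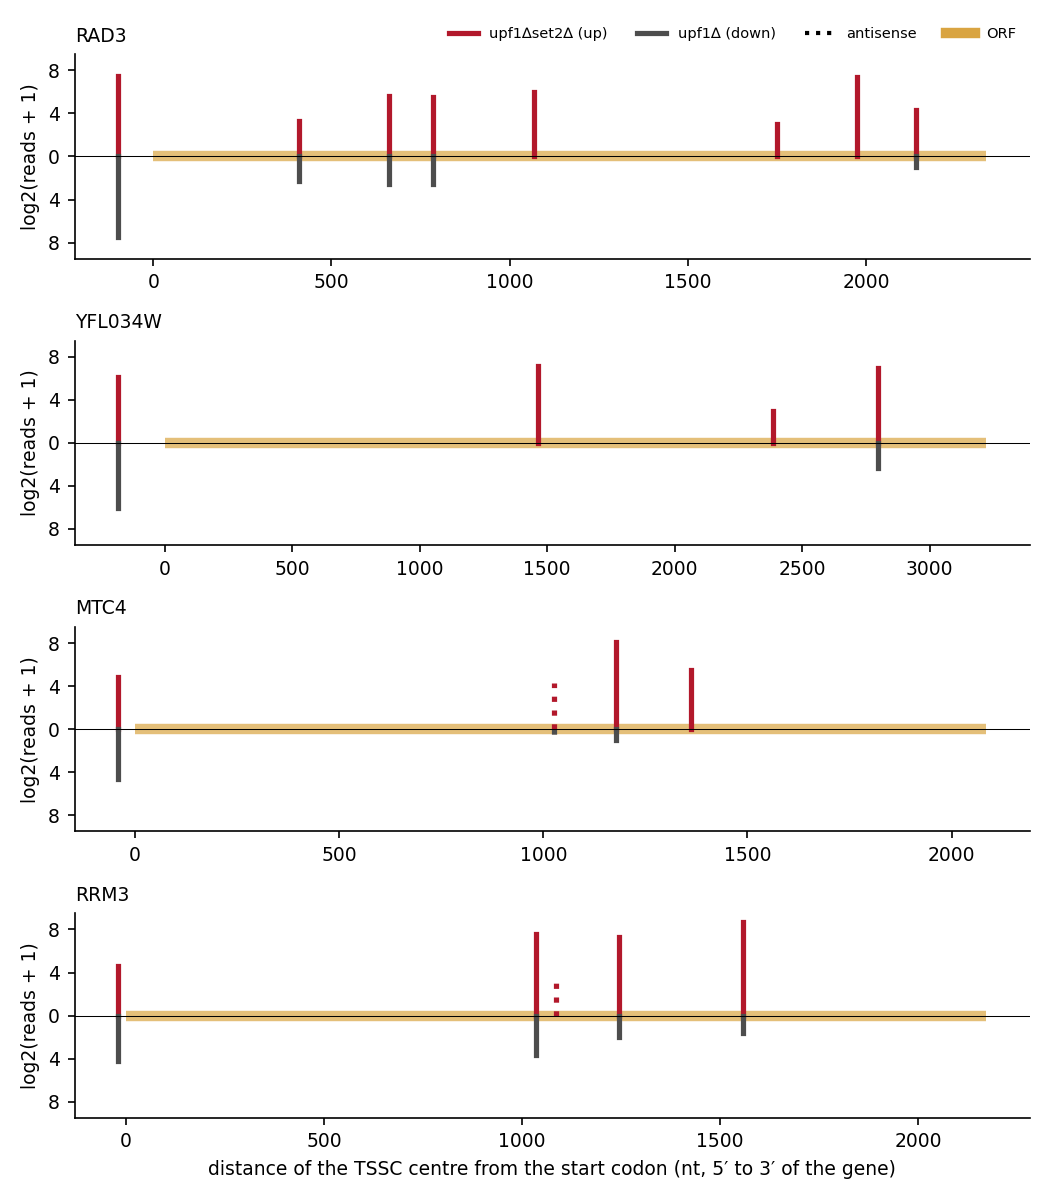
TSSCs of RAD3, YFL034W, MTC4 and RRM3 by the distance of their centre from the start codon (nt), with log2(reads + 1) in upf1∆set2∆ drawn upwards and in upf1∆ drawn downwards, dotted lines for antisense TSSCs and the ORF as a bar. The mRNA-TSSCs before the start codon are of like height in both genotypes, and the internal TSSCs are taller on the upf1∆set2∆ side.

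Over the whole table, B- and A-TSSCs were the classes that rose. Of the 7620 B-TSSCs, 4887 (64.1%, 95% Wilson interval 63.1% to 65.2%) were more than 2-fold higher in upf1∆set2∆ than in upf1∆ cells, and of the 2505 A-TSSCs 1605 (64.1%, 62.2% to 65.9%) were. Among all TSSCs 34.9% were higher, a share made up largely of these classes. Of the 5989 mRNA-TSSCs, 205 (3.42%, 2.99% to 3.91%) were higher. The median log2 ratio was 1.61 for B-, 1.58 for A- and 0.04 for mRNA-TSSCs. The mRNA median is no finding, because the authors normalized to reads upstream of ORF ATGs, where mRNA-TSSCs lie. More than 2-fold lower values were found for 128 B-TSSCs (1.68%), 35 A-TSSCs (1.40%) and 127 mRNA-TSSCs (2.12%), with 2.62% among all TSSCs. A change of more than 16-fold upwards was reached by 853 B- and 207 A-TSSCs but by 4 mRNA-TSSCs. The intervals count TSSCs as if each were independent, although those of 1 gene are not, and leave out how libraries vary. TSSCs were also admitted by their signal in separate libraries of upf1∆set2∆ cells. The shares higher and lower may therefore depend in part on that admission.

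The noncoding classes moved less. Of 839 CUT-TSSCs, 130 (15.5%) were higher and 32 (3.81%) lower, with a median of 0.22. Of 2052 XUT- and SUT-TSSCs 402 (19.6%) were higher and 105 (5.12%) lower, and of 2377 intergenic TSSCs 332 (14.0%) were higher and 124 (5.22%) lower. Stable noncoding RNAs and repeats had 7 of 325 TSSCs higher and 17 lower. All these shares of higher TSSCs lie below that of all TSSCs and above that of the mRNA class, except for the stable noncoding RNAs.

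**Figure D3:**
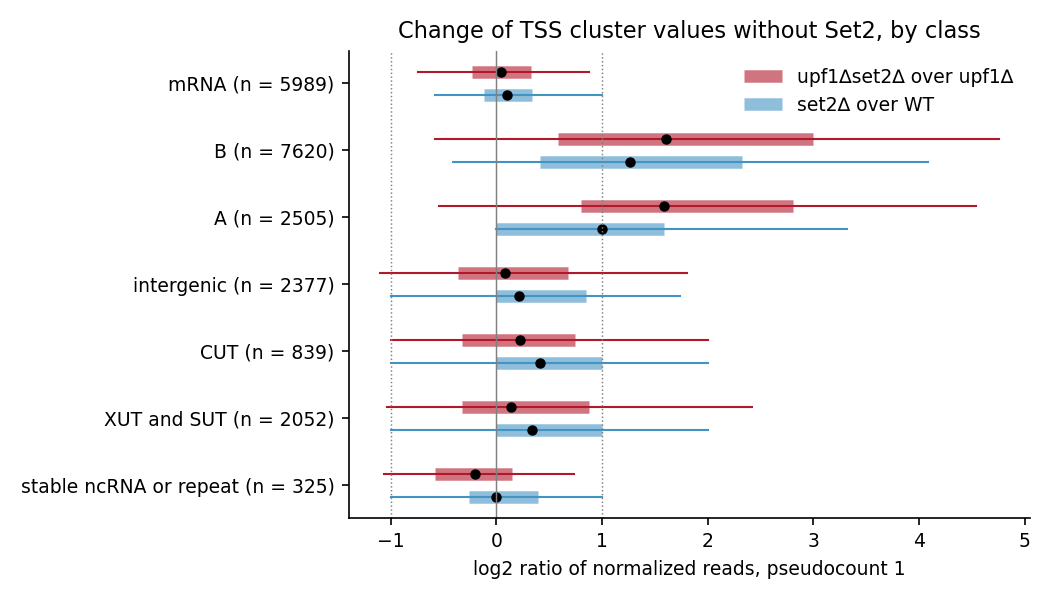
Log2 ratios (pseudocount 1) of normalized reads by class, for upf1∆set2∆ over upf1∆ and for set2∆ over WT, with the median as a point, the middle 50% of TSSCs as a bar and the 5% to 95% range as a line. The B- and A-TSSCs have medians of 1.61 and 1.58 in cells without Upf1. The mRNA-TSSCs sit around 0, where the normalization to reads upstream of ORF ATGs places them.

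Summed over all members, the B-TSSCs took 1.79% of the normalized reads in upf1∆ and 5.74% in upf1∆set2∆ cells, and the A-TSSCs 0.277% and 0.932%. The summed value of the B class was 81991 in upf1∆ and 245565 in upf1∆set2∆ cells, a ratio of 3.00, and that of the A class 12703 and 39856, a ratio of 3.14. The summed mRNA value went from 4268196 to 3750272. In cells with Upf1 the ratios of the sums were 3.05 for B and 3.33 for A, from smaller starting sums of 46133 and 3913 in WT. The set2∆ sums were 140792 and 13030, below those of upf1∆set2∆ cells.

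How far a ratio can be trusted depends on the value it rests on, and upf1∆ and WT were each sequenced again in 3 libraries of the RRP6 set of this series. Across 12115 TSSCs that overlapped one to one on the same strand, the log2 ratio of upf1∆ between the sets, relative to the mRNA median, had a standard deviation of 0.85 at a mean of at most 3 reads, 0.81 between 3 and 10, 0.60 between 10 and 30, 0.47 between 30 and 100 and 0.36 above 100. For WT it was 0.77, 0.67, 0.50, 0.47 and 0.36 at the same means. More than 2-fold higher values in this repeat were found for 9.08% of 2005 B-TSSCs and 5.30% of 774 A-TSSCs in upf1∆, and for 11.9% and 7.24% in WT. The tables were normalized separately, and these values include whatever differs between the sets. Only TSSCs found in both sets enter this repeat, so its shares stand beside those of the overlapping TSSCs given further on, not beside 64.1%.

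Many of the risen TSSCs were not there to be seen in upf1∆ cells. A value of 0 in upf1∆ was listed for 2631 B-TSSCs (34.5%) and 1167 A-TSSCs (46.6%), against 56 mRNA-TSSCs (0.935%). A cluster entered the table when any of the 12 libraries held enough reads, so one at 0 in upf1∆ had to be above 0 in another genotype. Among TSSCs above 0 in upf1∆, 53.6% of 4989 B- and 43.9% of 1338 A-TSSCs were higher, with medians of 1.30 and 1.00. The share fell with the upf1∆ value, from 66.7% of 2351 B-TSSCs at 1 to 3 reads and 54.3% of 1214 at 4 to 9 to 24.1% of 411 at 30 to 99 and 12.7% of 110 at 100 or more. In that last group 10.9% were lower and the median log2 ratio was -0.11. A-TSSCs at 1 to 3 reads were higher in 55.3% of 736 cases and those at 10 to 29 in 27.6% of 203. At 10 to 29 reads the share among mRNA-TSSCs was 5.22% of 804 and among intergenic TSSCs 6.63% of 543, below the internal classes at that level. At 0 reads most TSSCs were higher in these other classes too. The shares there were 84.1% for B, 87.1% for A, 80.0% for XUT and SUT, 71.4% for mRNA, 64.9% for CUT and 61.3% for intergenic. That level held 2212 of the 4887 higher B- and 1017 of the 1605 higher A-TSSCs.

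A second view used those clusters that were also found in the RRP6 set, which has no library without Set2. Their borders and their admission still came from the SET2 table, so this view is not free of selection through cells without Set2. Those TSSCs of the SET2 table that overlap one of the 17812 TSSCs of the RRP6 table comprised 2140 B- and 835 A-TSSCs, of which 33.2% and 32.7% were higher in upf1∆set2∆ cells, with medians of 0.46 and 0.58. The 5480 B- and 1670 A-TSSCs outside that table were higher in 76.2% and 79.8%, with a median of 2.00 for the A-TSSCs. Among mRNA-TSSCs that overlap the RRP6 table, 2.33% of 5699 were higher. The share of B- and A-TSSCs counted as higher therefore depends on which clusters are admitted, and stayed above that of mRNAs in both views.

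The position of an internal TSSC along the mRNA went with its change. Placed by its distance from the annotated 5′ end, a B-TSSC in the first 10% of the mRNA was higher in 13.2% of 106 cases and one between 20% and 30% in 30.8% of 588. The share was 64.9% of 841 between 40% and 50% and 81.8% of 1104 between 70% and 80%, and 65.9% of 434 in the final stretch from 90% to 100%. The median log2 ratio was 0.00 in the first and 2.58 between 70% and 80%. The B-TSSCs that were higher lay at a median of 1424 nt from the 5′ end, and the others at 543 nt. Within 250 nt of the 5′ end 10.1% of 542 B-TSSCs were higher, and from 1000 to 2000 nt 82.7% of 2537 were. The median upf1∆ values of these groups were 6 and 1. Positions were not compared at matched upf1∆ values, with which the share also changes.

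A-TSSCs showed the rise of the share earlier along the gene. It was 23.4% of 47 in the first 10% of the mRNA, 60.1% of 193 between 20% and 30% and 78.1% of 251 between 40% and 50%, and then 57.6% of 271 in the stretch from 90% to 100%. By distance, 12.8% of 109 A-TSSCs within 250 nt of the mRNA 5′ end and 81.2% of 888 from 1000 to 2000 nt were higher. Their median upf1∆ values were 4 and 0. Of all B- and A-TSSCs, 400 and 189 had no mRNA coordinates or fell outside them and were not placed. In the subset that overlaps the RRP6 table B-TSSCs were higher in 6.67% of 60 in the first 10% and in 57.2% of 173 between 70% and 80%. A-TSSCs of that subset were higher in 19.0% of 21 in the first 10% and in 44.9% of 49 between 40% and 50%. In the steps just before and just after the latter they were higher in 24.6% of 69 and 28.3% of 46, so the course was irregular. From 90% to 100% the share was 40.8% of 147, without the fall at the 3′ end seen over the whole table.

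**Figure D4:**
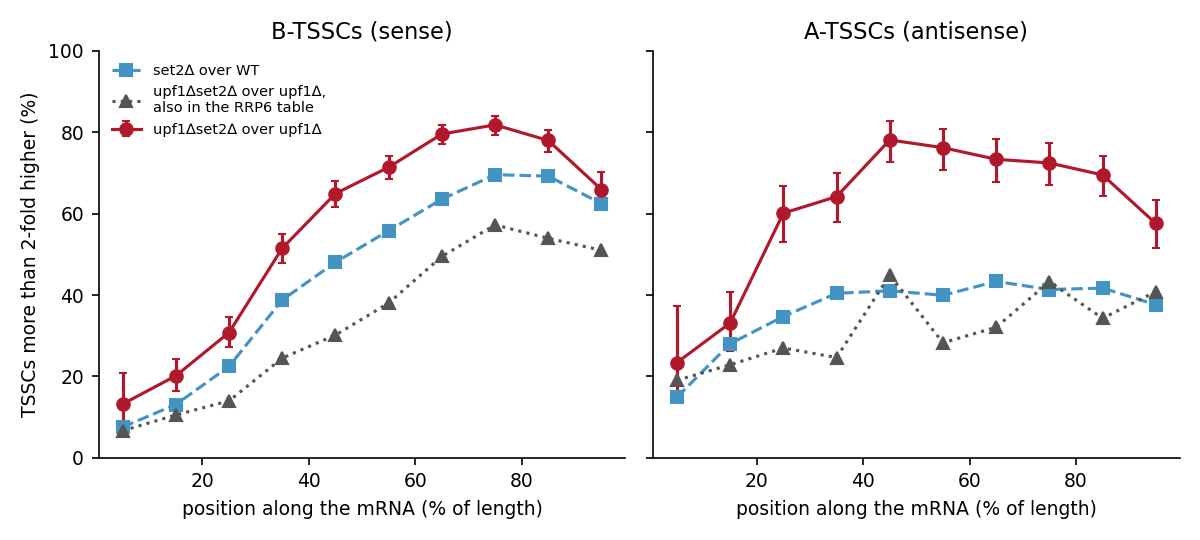
Share of B- and A-TSSCs more than 2-fold higher (%) by position along the mRNA in steps of 10% of its length, for upf1∆set2∆ over upf1∆ with 95% Wilson intervals, for set2∆ over WT, and for the TSSCs that are also in the RRP6 table. For B-TSSCs without Upf1 the share goes from 13.2% at the 5′ end to 81.8% between 70% and 80% of the length.

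The share of risen starts went up with the length of the mRNA. On mRNAs of up to 1000 nt, 16.2% of 667 B-TSSCs and 21.4% of 220 A-TSSCs were higher, and on mRNAs over 3000 nt 84.3% of 1650 and 77.8% of 600 were. The median upf1∆ value was 7 for B- and 5 for A-TSSCs on the short mRNAs, and 0 for both on the long ones. Lengths were not compared at matched upf1∆ values. Counted by gene, 89 of 1313 genes with an mRNA of up to 1000 nt (6.78%) and 428 of 554 with one over 3000 nt (77.3%) had at least 1 higher B-TSSC. These genes held 610 and 1390 B-TSSCs, so the long ones also had more of them per gene. The position showed within length groups too. On mRNAs over 3000 nt the share of higher B-TSSCs was 62.9% of 197 in the 5′ part and 90.1% of 585 in the middle part, with each mRNA cut into 3 equal parts. On mRNAs from 1000 to 2000 nt the shares were 18.6% of 633 and 61.4% of 1228.

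Weakly expressed genes had risen starts more often than strongly expressed ones. With genes ranked by their WT mRNA value, 752 of the 1309 genes with the lowest values (57.4%) and 199 of the 1309 with the highest (15.2%) had a higher B-TSSC, and 28.6% and 7.87% had a higher A-TSSC. The genes with the lowest values were also longer, with a median mRNA length of 2025 nt against 1073 nt. Within mRNAs from 1000 to 2000 nt the shares with a higher B-TSSC were 46.0% of 483 and 20.3% of 610, and within those from 2000 to 3000 nt 73.9% of 371 and 42.6% of 101. So the order by level stood within both length groups.

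Of 5234 genes with an mRNA-TSSC, 2134 (40.8%) had at least 1 higher B-TSSC, 961 a higher A-TSSC and 707 both. In 575 genes 3 or more B-TSSCs were higher. DNA2, the nuclease and helicase that trims Okazaki fragments, and SYF1, a splicing factor, had 9 higher of 9 B-TSSCs each. Those of DNA2 summed to 2 in WT, 4 in upf1∆, 61 in set2∆ and 191 in upf1∆set2∆ cells, and those of SYF1 to 3, 3, 51 and 109. The 7 B-TSSCs of SPP41, all higher, summed to 23, 16, 494 and 725, beside mRNA-TSSC values of 91, 80, 120 and 111. Their sum was below the mRNA value in WT and upf1∆ cells and above it in set2∆ and upf1∆set2∆ cells. NCR1, a sterol transporter of the vacuole membrane, had 7 higher of 9 and went from 270 in set2∆ to 533 in upf1∆set2∆ cells.

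For each gene with both kinds of start, the B-TSSC reads were taken as a share of B- plus mRNA-TSSC reads. Over 3103 such genes the median internal share was 2.51% in WT, 4.00% in upf1∆, 12.6% in set2∆ and 19.2% in upf1∆set2∆ cells. It exceeded 50% in 246 genes in upf1∆ and in 854 genes in upf1∆set2∆ cells. Restricted to the 2627 genes with mRNA values of at least 20 in both genotypes, the medians were 3.16% and 13.4%. Genes entered both sets by having a B-TSSC, which reads of the genotypes without Set2 alone could supply. Over all 5234 genes with an mRNA-TSSC the medians were 0% in WT, 0% in upf1∆, 0.97% in set2∆ and 1.82% in upf1∆set2∆ cells. TRS85, a subunit of the TRAPPIII complex of membrane traffic, went from 9.52% to 89.9%, with B-TSSC reads of 4 and 401 and mRNA reads of 38 and 45. UBP7, a deubiquitinating enzyme, went from 13.3% to 93.2%, SHS1, a septin, from 1.28% to 80.5%, and SSF2, a ribosome assembly factor, from 5.93% to 84.3%.

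The mRNA starts were also compared between genes with and without risen internal starts. The summed mRNA-TSSC value had a median log2 ratio of 0.01 in the 2846 genes without a higher internal TSSC, 0.11 in the 1427 with higher B-TSSCs alone, -0.01 in the 254 with higher A-TSSCs alone and 0.00 in the 707 with both. More than 2-fold lower mRNA values were found in 1.86%, 1.40%, 1.97% and 1.56% of them, and more than 2-fold higher values in 1.97%, 3.29%, 1.18% and 1.41%. Genes with higher B-TSSCs alone thus had the highest median and the most higher mRNA values, which was not tested.

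Antisense starts rose by as much as sense ones in the most changed genes. SSY1, the amino acid sensor of the plasma membrane, had an A-TSSC on chromosome IV from 777370 to 777607 listed at 0 in WT and upf1∆, 17 in set2∆ and 161 in upf1∆set2∆ cells. ALY2, an arrestin-like adaptor for the endocytosis of nutrient transporters, had one on chromosome X from 275754 to 275954 at 0, 2, 110 and 470. NUP42, a nucleoporin, had one on chromosome IV from 843740 to 843862 at 1, 0, 22 and 155, and BSC5 had one on chromosome XIV from 761215 to 761360 at 0, 1, 46 and 241. In these 4 the upf1∆set2∆ value was well above that of set2∆. Among the 4 leading B-TSSCs the same was seen at RAD3, MTC4 and RRM3, and YFL034W was at 126 and 144. All of these TSSCs were chosen by a high upf1∆set2∆ value, and set2∆ took no part in that choice. That upf1∆set2∆ exceeds set2∆ in them is therefore a description and no finding. The A-TSSCs with the lowest ratios were 2 of HXT11 and 2 of HXT9, near-identical hexose transporter genes between which reads may not have been told apart. That of HXT11 on chromosome XV from 26486 to 26541 was at 5, 50, 1 and 11.

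The same contrast was then read in cells with Upf1. Of the B-TSSCs, 3951 (51.9%) were more than 2-fold higher in set2∆ than in WT cells, and of the A-TSSCs 972 (38.8%), with 27.7% among all TSSCs. Lower values were found for 70 B- and 10 A-TSSCs, with 1.33% among all TSSCs. Of the 4887 B-TSSCs higher in upf1∆set2∆ cells, 3480 (71.2%) were also higher in set2∆ cells and 1 was lower. Of the 1605 A-TSSCs, 825 (51.4%) were higher and none was lower. Among B- and A-TSSCs that were not higher without Upf1, 17.2% of 2733 and 16.3% of 900 were higher in set2∆ cells. The risen B-TSSCs had median values of 1 in WT, 1 in upf1∆, 6 in set2∆ and 14 in upf1∆set2∆ cells, and the risen A-TSSCs 0, 0, 2 and 8.

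Across B-TSSCs the log2 ratios of both contrasts had a Spearman's rho of 0.75 (n = 7620) and across A-TSSCs of 0.61 (n = 2505). These are correlations across TSSCs, which share their libraries and are not replicates, and the contrasts have no library in common. Over all members the log2 ratio was larger without Upf1 by a median of 0.32 for B and 0.68 for A-TSSCs. Among those with a mean over the 4 genotypes of at least 10 the medians were 0.07 (n = 2572) and 0.11 (n = 417). The ratios of the class sums were not larger without Upf1, at 3.00 against 3.05 for B and 3.14 against 3.33 for A. The difference over all members thus rests largely on low values, and was not tested.

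**Figure D5:**
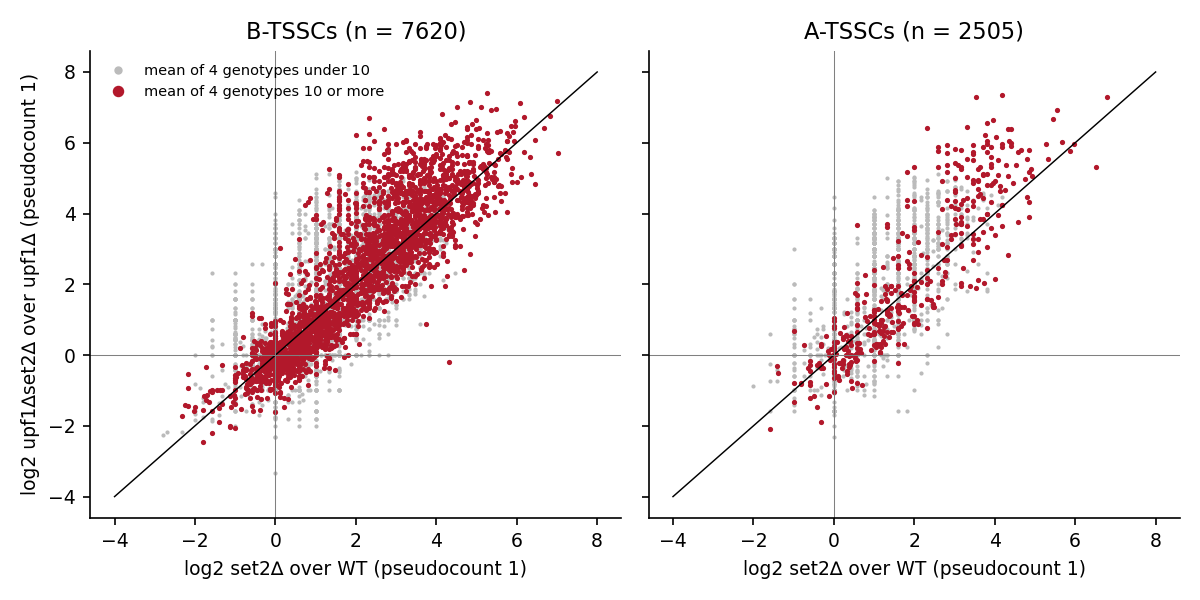
Log2 ratio (pseudocount 1) of set2∆ over WT on the x axis and of upf1∆set2∆ over upf1∆ on the y axis for each B- and A-TSSC, with TSSCs of a mean over the 4 genotypes of at least 10 in red and the others in grey. Over all points Spearman's rho was 0.75 for B and 0.61 for A. Many red points passed that mean through the genotypes without Set2, so their place near the diagonal line of equal ratios is no separate support.

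In cells with Upf1 the values of B-TSSCs, risen or not, differed with the frame of their first ATG, which was not tested. The risen members were called by upf1∆set2∆ over upf1∆, and set2∆ and WT values took no part in that call. Reads of set2∆ and WT libraries could still let a cluster into the table, so their values are not free of selection. From the centre of the cluster, 4369 higher B-TSSCs were followed by an ATG within an uninterrupted ORF, at a median of 29 nt, and in 1303 of them (29.8%) this ATG was in frame. Among the 2231 other B-TSSCs, 26.7% were in frame. An in-frame ATG opened a median of 172 codons and an out-of-frame ATG a median of 10, and 95.8% of the latter opened fewer than 50. The values that chose them are given as a description: the median in upf1∆set2∆ was 13 in frame and 14 out of frame, and the median log2 ratio over upf1∆ 2.62 and 2.70. In cells with Upf1 the median set2∆ value was 10 in frame and 5 out of frame, and the median log2 ratio of set2∆ over WT was 2.46 and 1.79. Counted from the 5′ edge of the cluster the last pair was 2.37 and 1.81, and from the 3′ edge 2.43 and 1.78. The log2 ratio of upf1∆set2∆ over set2∆, which uses values that chose the members, had a median of 0.35 in frame and 1.32 out of frame. The other B-TSSCs differed in the same direction, so this is not particular to risen starts. Their medians in and out of frame were 0.58 and 0.26 for set2∆ over WT. For upf1∆set2∆ over set2∆ they were 0.00 and 1.00. Of the genes whose sequences are printed above, YFL034W, in frame, had 126 in set2∆ and 144 in upf1∆set2∆ cells. Of the out-of-frame ones RAD3 had 76 and 168, MTC4 56 and 282 and RRM3 270 and 421. All of these were chosen by their ratio of upf1∆set2∆ over upf1∆.

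The bases at the start itself were read in TSSCs 1 nt wide, where the start is known to the base. Yeast polymerase II prefers an A 8 bases before the start and a pyrimidine followed by a purine at the start. The 3 risen B- and the 3 risen A-TSSCs of this width with the highest upf1∆set2∆ values show these positions, with the bases at -8, -1 and +1 in capitals:
RCY1: ctctAtataggTAtgaagtgcggaa
YKL100C: gaacAattcatCAagcgctaaccaa
YNR065C: agggAaaaggtTGgagagaacaagg
SEA4: tcttAaaacatCGaacctggctcgc
AAD10: ccatAacatccCAtggagcaagagc
BPL1: gttgAgaactgTGagccatctggaa

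RCY1, YKL100C and YNR065C are B-TSSCs, with upf1∆ values of 5, 7 and 0 and upf1∆set2∆ values of 27, 18 and 15, and SEA4, AAD10 and BPL1 are A-TSSCs, with 0, 0 and 3 and with 13, 13 and 10. The windows lie on chromosome X from 50578 to 50602 (minus strand), XI from 255374 to 255398 (minus), XIV from 751903 to 751927 (minus), II from 18723 to 18747 (plus), X from 727831 to 727855 (minus) and IV from 203475 to 203499 (minus). An A stood at -8 in 78.2% of 893 higher and 72.8% of 1053 other B-TSSCs, in 76.7% of 489 higher and 72.5% of 433 other A-TSSCs and in 72.7% of 216 mRNA-TSSCs of 1 nt. A pyrimidine at -1 with a purine at +1 was found in 98.7% of the higher and 94.3% of the other B-TSSCs, but the authors admitted TSSCs by this very feature, so the share is no finding.

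The sequence TATAAA, searched on both strands in the bases from 150 to 20 nt before each cluster, was present for 12.3% of 4887 higher and 12.7% of 2733 other B-TSSCs. It was present for 17.6% of 1605 higher and 20.0% of 900 other A-TSSCs and for 24.0% of all 5989 mRNA-TSSCs. The median GC content of these windows was 38.9% for higher and 39.7% for other B-TSSCs and 35.9% for mRNA-TSSCs. A match to these letters is a description of the window and not evidence of a bound factor.

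Genes in which cryptic starts have long been known moved almost throughout. In a list of 12 such genes, 47 of 50 B-TSSCs and 10 of 10 A-TSSCs were higher, beside 64.1% of each class over the table. The 3 B-TSSCs that were not, 1 each in FLO8, APM2 and SPB4, were listed at 0 in upf1∆ and 1 in upf1∆set2∆ cells. FLO8, the activator of flocculation genes and the classic reporter of cryptic initiation, had a B-TSSC on chromosome V from 376342 to 376623 at 6 in WT, 5 in upf1∆, 127 in set2∆ and 223 in upf1∆set2∆ cells. Its mRNA-TSSC was at 24, 50, 31 and 48. STE11, a MAP kinase kinase kinase of mating, had B-TSSCs at 85, 68 and 77 in upf1∆set2∆ and at 0, 1 and 1 in upf1∆ cells. SPB4, a helicase of ribosome assembly, had one at 26, 20, 356 and 433. SMC3, a cohesin subunit, had 5 B-TSSCs, all higher, of which the largest was at 3 in upf1∆, 3 in set2∆ and 25 in upf1∆set2∆ cells. Of the 12 mRNA-TSSCs of the list none was higher and 1 was lower, a minor one of RAD18 at 2 and 0, with a median of 0.17 against 0.04 for all mRNA-TSSCs. The list was drawn up from work on Set2 and related factors and is not independent of the effect.

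The gene of OM45 (YIL136W), an outer membrane protein of mitochondria, held internal starts of both kinds. Its B-TSSC nearest to the 5′ end, on chromosome IX from 93862 to 94003, was at 36 in WT, 179 in upf1∆, 42 in set2∆ and 224 in upf1∆set2∆ cells, a log2 ratio of 0.32 that lies within the spread between sets. The B-TSSC from 94378 to 94582 was at 19, 54, 76 and 152, with a ratio of 1.48. In YMR114C, on chromosome XIII from 496546 to 496630, a B-TSSC with 292 in WT already was at 1026, 1012 and 2206, with a ratio of 1.10, and its mRNA-TSSC was at 214 in upf1∆ and 287 in upf1∆set2∆ cells.

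The deleted genes could not be checked by their own starts. The mRNA-TSSC of SET2 (YJL168C), on chromosome X from 104482 to 104537, lies outside the ORF (102227 to 104428) and was at 40 in WT, 26 in upf1∆, 6 in set2∆ and 13 in upf1∆set2∆ cells. A B-TSSC from 102054 to 102081, beyond the other end of the ORF, was at 0, 1, 7 and 55. That of NAM7, the gene of Upf1, on chromosome XIII from 429694 to 429773, lies upstream of its ORF (426712 to 429627) and was at 111, 165, 110 and 101. No TSSC of either gene lies inside its ORF. ACT1, the actin gene, was at 17697 in upf1∆ and 14490 in upf1∆set2∆ cells, a log2 ratio of -0.29.

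Over all mRNA-TSSCs 3.42% were higher and 2.12% lower, which is the background for each list below, and at these shares a short list can hold no call. In a list of 27 genes of the Set2 pathway and of transcription-linked chromatin, 0 of 31 mRNA-TSSCs were higher and 0 lower, and the median was 0.26. SPT6, the histone chaperone that travels with the polymerase, was at 756 and 966 and SPT2 at 713 and 760. Inside the same genes 39 of 45 B-TSSCs and 4 of 9 A-TSSCs were higher, beside 64.1% of each class over the table. These counts include SET2 itself, deleted in upf1∆set2∆ cells, with its mRNA-TSSC and with its higher B-TSSC beyond the ORF. RTT106, a histone chaperone, had a B-TSSC at 34 in WT, 65 in upf1∆, 396 in set2∆ and 690 in upf1∆set2∆ cells, and SGV1, a kinase of the elongating polymerase, one at 7, 5, 118 and 122. Of 11 mRNA-TSSCs of NMD and decapping factors 0 were higher and 0 lower, with a median of 0.08, and LSM1, of the decapping complex, was at 1070 and 1300. Histone genes had 0 higher and 0 lower of 14, with a median of -0.32, and HHT2, which encodes histone H3, was at 9668 in upf1∆ and 6589 in upf1∆set2∆ cells.

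Heat shock and chaperone genes gave 5 higher and 0 lower of 13 mRNA-TSSCs, beside 3.42% and 2.12% of all, with a median of 0.33. In set2∆ against WT 2 were higher and 0 lower. HSP26, a small heat shock protein, had a start at 146 in WT, 75 in upf1∆, 393 in set2∆ and 214 in upf1∆set2∆ cells, and a second start at 35 in upf1∆ and 37 in upf1∆set2∆ cells. HSP30, a stress protein of the plasma membrane, was at 120, 157, 496 and 430, with log2 ratios of 1.45 without and 2.04 with Upf1. SSE2, of the Hsp110 family, was at 279, 247, 553 and 611 (1.30 and 0.98), and HSP78, a chaperone of the mitochondrial matrix, at 137, 159, 224 and 345 (1.11 and 0.71). The fifth, SSA3, went from 0 to 2. HSP12 and HSP42, at 654 and 776 and at 904 and 1138, were not counted as changed.

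Of the 4 mRNA-TSSCs with the lowest ratio, 3 were of genes for amino acid or sulfur metabolism and 1 was of STE3 (-2.88), which is described further on. ARG3, the ornithine carbamoyltransferase, was at 80 in WT, 167 in upf1∆, 18 in set2∆ and 11 in upf1∆set2∆ cells, a log2 ratio of -3.81. MET5, a sulfite reductase subunit, was at 191, 168, 42 and 21 (-2.94) and ARG1, the argininosuccinate synthetase, at 606, 1041, 178 and 161 (-2.69). A list of 9 arginine genes, chosen after these values were seen, had 8 mRNA-TSSCs, and 8 of the 8 were lower past 2-fold (median log2 ratio -1.41). In set2∆ against WT 5 of the 8 were lower, with a median of -1.35. ARG4, the argininosuccinate lyase, was at 797, 1518, 518 and 523. A list of 12 genes of sulfate assimilation and methionine synthesis, chosen in the same way, had 7 lower and 0 higher of 14, with a median of -1.02, and 5 lower in set2∆ cells. MET3, the ATP sulfurylase, was at 50, 40, 8 and 6 and MET13, a methylenetetrahydrofolate reductase, had a start at 281, 436, 113 and 101. Histidine synthesis had 0 higher and 0 lower of 7, with a median of -0.19, and HIS4 was at 2534 and 2424.

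The remaining lists were short. Of 6 mRNA-TSSCs of a-mating type genes 1 was lower, that of MFA1, which encodes the a-factor pheromone, at 2549 in WT, 1661 in upf1∆, 1378 in set2∆ and 568 in upf1∆set2∆ cells. Of 4 of alpha mating type genes 2 were lower, both of STE3, the receptor for a-factor, and 1 was higher, that of MF(ALPHA)2, listed at 0, 0, 18 and 11. The larger STE3 start was at 64, 117, 8 and 15. Of 6 mRNA-TSSCs of galactose genes 1 was lower, that of GAL3, the galactose sensor, at 58 and 20. Genes in common use as yeast markers, which are not all markers of these strains, had 1 lower of 3 mRNA-TSSCs, that of LYS2 at 35 and 16. HIS3 was at 3265 and 1822. A TSSC assigned to CAN1 was at 1180 and 1597, although all strains were can1∆, so it is not a measure of an intact gene.

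The largest rises among mRNA-TSSCs were those of YNR062C, at 8 in WT, 10 in upf1∆, 353 in set2∆ and 358 in upf1∆set2∆ cells (log2 ratio 5.03), PGU1, an endopolygalacturonase, at 0, 1, 6 and 47, YNR064C at 13, 10, 112 and 180 and YNL140C at 1, 2, 42 and 41. Of the 205 higher mRNA-TSSCs 104 (50.7%) were also higher in set2∆ against WT, and of the 127 lower ones 40 (31.5%) were also lower, beside 3.77% and 1.14% of all mRNA-TSSCs in that contrast. Among those with a mean of at least 20 over upf1∆ and upf1∆set2∆ these were 67 of 103 (65.0%) and 31 of 75 (41.3%).

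TSSCs of the intergenic and noncoding classes had large rises of their own. The leading intergenic TSSC, on chromosome IV from 95905 to 95964 between YDL204W and YDL203C, was at 1 in WT, 3 in upf1∆, 38 in set2∆ and 356 in upf1∆set2∆ cells. CUT478, on chromosome IV from 194253 to 194452, was at 1, 6, 23 and 328. XUT_4F-297, on chromosome IV from 607102 to 607207, was at 16, 22, 828 and 1090, a log2 ratio of 5.57. The largest ratio of an XUT was that of XUT_15F-232 (6.06), at 0, 1, 13 and 132. SUT603, on chromosome IX from 44168 to 44203, was at 0, 0, 54 and 71. Among stable RNAs the largest ratio was at SNR59, a small nucleolar RNA, at 8, 19, 33 and 80. Of the XUTs the lowest ratio was that of XUT_7F-206, at 123, 337, 27 and 50 (-2.73).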

How the data were processed

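Deposited score values were used: per TSSC and genotype 1 whole number of reads that the authors had normalized with DESeq2, run through SARTools, to the reads upstream of ORF ATGs. The labels name Bowtie2 and the genome build R64. The authors removed duplicates by a random tag, joined 5′ ends into TSSCs over 12 libraries, and kept TSSCs by TAP signal and by starts on a purine after a pyrimidine. The TAP libraries that served this table were of upf1∆set2∆ cells. That a value is the mean of 3 libraries was inferred. The deposited table also holds the log2 fold changes and p-values of the authors' own comparisons, which were not used. The depth of single libraries and the TAP and RNAseq libraries were not analysed here, and 0 columns of values per sample were left unused.

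Ratios were taken with a pseudocount of 1 in Python 3.11.15 with pandas 2.3.3 and scipy 1.17.1, and figures with matplotlib 3.10.9. A TSSC counted as higher or lower past 2-fold. Planned count models could not be fitted to pooled values. Intervals are 95% Wilson intervals. Overlap meant at least 1 nt on the same strand. ORFs were checked on the R64 genome, where 5210 of 5234 had an ATG at the annotated start. The steps were tested on simulated data.

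TSSCs were named as the deleted genes, ACT1, the transcripts the study names for SET2, yeast marker genes, the 4 with the largest ratio per class among those with a mean of at least 20, and in lists the changed members or otherwise the 2 highest. HSP12, HSP42, the genes with most or largest internal shares, the members named inside the cryptic start and Set2 lists and those of the 2 amino acid lists were chosen after their values were seen. The comparison and all lists were chosen with earlier results of these data known.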

Additional observations from a re-analysis of the deposited data

How the results depend on the processing

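Of the values that answer a comparison, 53 recomputed under other settings stayed within 1.5 times (a median: within its interval), 26 moved further and 0 reversed. With a pseudocount of 5 the shares higher were 42.3% for B, 35.7% for A, 5.55% for intergenic, 5.60% for CUT-, 10.2% for XUT- and SUT- and 1.92% for mRNA-TSSCs, and 1.17% of mRNA-TSSCs were lower. Past 4-fold they were 41.6%, 37.1%, 4.04%, 4.17%, 7.16% and 0.852%, with 0.217% lower. With a mean of at least 10 over upf1∆ and upf1∆set2∆ 2.24% of mRNA-TSSCs were higher. With a mean of at least 10 over WT and set2∆ the shares higher were 2.05% in the mRNA class, 9.31% in the CUT class and 8.50% for XUTs with SUTs. In TSSCs that overlap the RRP6 table, an alternative chosen after seeing the data, the shares were 33.2% for B, 32.7% for A, 8.98% for intergenic and 10.7% for XUT- and SUT-TSSCs. In set2∆ against WT 59.9% of A-TSSCs were higher with a pseudocount of 0.1 and 67.3% with a mean of at least 10. In genes with mRNA values of at least 20 in both, the median internal share was 3.16% in upf1∆ and 13.4% in upf1∆set2∆ cells. Scaling to equal sums moved the median of all TSSCs from 0.47 to 0.57, and the mRNA-TSSCs past 2-fold from 205 higher and 127 lower (61.7% higher) to 266 and 108 (71.1%). Relative to the mRNA median they were 198 and 158 (55.6%). No gene list changed the sign of its median under either scaling. The causes were not tested. No paired analysis was possible because each genotype has 1 pooled value, and leaving out a library was not run for the same reason. At means of 10 or less the standard deviation between sets was 0.67 to 0.85 (log2), which limits what can be read from single TSSCs at that level.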

Other observations

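Near the ends of chromosomes mRNA-TSSCs changed more often in both directions. Within 20 kb of an end 10.9% of 156 were more than 2-fold higher and 8.97% lower in upf1∆set2∆ than in upf1∆ cells, and farther than 50 kb from an end 2.88% and 1.84% of 5382. In set2∆ against WT the shares within 20 kb were 10.9% and 6.41%. The levels of these genes were not matched.

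At STE3 some nearby starts were lower together with the mRNA start. An intergenic TSSC on the other strand, on chromosome XI from 114134 to 114211, was at 7 in WT, 69 in upf1∆, 0 in set2∆ and 6 in upf1∆set2∆ cells, and SUT226, from 115082 to 115116, was at 33, 32, 6 and 8. Others were not, as the mRNA-TSSC of COY1 was at 16 in upf1∆ and 25 in upf1∆set2∆ cells and a B-TSSC of LST4 at 0 and 13. On chromosome XIV the risen mRNA-TSSCs of YNR062C and YNR064C stood near a B-TSSC of YNR065C from 750616 to 750817 with 3, 8, 222 and 484, whereas the mRNA-TSSC of YNR063W between them was at 39, 54, 25 and 38.

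Of 21707 TSSCs 10 were more than 2-fold changed in opposite directions in the contrasts with and without Upf1, and 0 of these had a mean of at least 20 over upf1∆ and upf1∆set2∆. Among B- and A-TSSCs with a mean over the 4 genotypes of at least 10, the contrasts differed most at B-TSSCs of YER158C, at 0 in WT, 78 in upf1∆, 19 in set2∆ and 68 in upf1∆set2∆ cells, and of BUD27, at 1, 0, 9 and 102. These differences were not tested.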
